A study of Mus musculus with 9 samples.

Results

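Translation initiation factors (eIFs) and elongation factors (eEFs) are the proteins that start and extend protein chains on the ribosome, and their mRNAs were followed in mouse embryonic fibroblasts (MEFs) sorted by their level of MYC. The members are all protein-coding genes of the RNA-seq table whose symbol begins with Eif and a digit or with Eef1 or Eef2, except Eef1e1, which gave 67 genes (54 Eif and 13 Eef) of 19769 in the table, 15118 of them protein-coding. RNA came from primary MEFs of Myc-Egfp+/+ embryos, in which green fluorescent protein is fused to MYC at its own locus. The 4 libraries are 2 technical replicates of low-MYC and 2 of high-MYC MEFs. Before sorting by green fluorescence, cells of both groups had received 20 µM of MG-132, a proteasome inhibitor, for 6 h, so no library shows cells without it, and the sorted cells grew overnight before RNA was taken. The question was how transcript levels differ between cells at opposite ends of the MYC range. FUBP1 ChIP-seq of primary MEFs at steady state (1 sample) and a TACh-seq table of reads from nuclease-accessible chromatin, from an experiment on WT and KOKD MEFs (Fubp1 knockout with Fubp2 siRNA), were used for chromatin at the same genes.

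Initiation begins when eIF2 brings the initiator tRNA to the small ribosomal subunit, where eIF1, eIF1A, eIF3 and eIF5 keep it in place while the mRNA is scanned for a start codon. The mRNA is loaded by the eIF4 group, in which eIF4E holds the cap, eIF4G is the scaffold and eIF4A unwinds structure, and the 4E-BP repressors compete with eIF4G for eIF4E. After initiation eIF2 holds GDP and is recharged by eIF2B, a step that the eIF2 kinases shut down under stress. In elongation eEF1A delivers aminoacyl-tRNA, the eEF1B subunits recharge eEF1A, and eEF2 moves the ribosome along the mRNA. MYC is known as an activator of many genes of this machinery, and Eif4e is a textbook example.

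The deposited values are reads per kilobase divided by a spike-in score, so they are relative to cell number, and 1 read was worth 1, 1.00, 2.24 and 2.54 times as much in low-MYC replicates 1 and 2 and high-MYC replicates 1 and 2. The products of value and gene span (end minus start, introns included) fell on whole multiples of 1 step per library for 82.8% to 84.5% of genes with low values, against 4.55% to 5.64% for products with transcript or merged exon length (within 0.02 of a read). The kilobases therefore are those of the gene span. Reads recovered in this way summed to 87682845 to 96331299 per library, and tested members held from 748 to 924045 reads in a library. For levels of different genes, reads were divided again by the length of the longest protein-coding transcript, in the same spike-in unit, and this is called the level here. All 12 fibroblast markers were present in every library, from Dcn (0.423 and 0.422 at low MYC and 1.86 and 1.94 at high MYC, deposited values) to Vim (156 and 160.4 at low MYC and 339 and 352 at high MYC). The 16 macrophage markers summed to 0.968 and 1.32 at low MYC and 30.6 and 32.0 at high MYC. Of these, 13 were tested and all 13 were higher in high-MYC cells on the spike-in scale (limma, Benjamini-Hochberg adjusted p under 0.01), as were 97.1% of all genes. After rescaling to the same median, 12 of the 13 were called higher in the same way, against 1.76% of all genes, and C1qa, Adgre1 and Tyrobp were at 0 in 1 low-MYC library. Of the 16 markers, 14 had a low-MYC mean under 0.1. Most of the 13 therefore passed the minimum mean of 0.1 over the 4 libraries only through the high-MYC libraries. That filter largely set these counts in advance, so they are not support beyond the values themselves. Lyz2, for example, had 0.0305 and 0.142 at low MYC and 17.99 and 18.9 at high MYC. Their part in the results for translation factors was not tested. In such bulk samples fewer cells of a type and less RNA per cell cannot be told apart.

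The E-box CACGTG, a palindrome to which MYC binds with its partner MAX, was searched in RefSeq promoter windows (GRCm38.p6, from 250 bases before to 50 after each gene start). Of the 52 members with a window, 14 (26.9%) held it, against 997 of 8174 protein-coding genes tested (12.2%); over single windows the shares were 16 of 67 and 7.15% of 32851. The following stretches are shown to set the motif in members of several roles, namely elongation (Eef2 and its kinase Eef2k), cap binding, scaffold and unwinding (Eif4e, Eif4g1, Eif4a1), eIF3 (Eif3f) and eIF5A, with the motif in capitals and the strand of the gene.
Eef2, chr10:81176576-81176605, plus strand: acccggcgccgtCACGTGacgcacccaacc
Eif4a1, chr11:69672595-69672624, minus strand: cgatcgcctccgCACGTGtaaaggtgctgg
Eif5a, chr11:69921443-69921472, minus strand: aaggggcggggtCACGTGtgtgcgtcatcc
Eif4e, chr3:138527028-138527057, plus strand: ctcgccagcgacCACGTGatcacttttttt
Eif4e, chr3:138527192-138527221, plus strand: ggacacgtccgtCACGTGggcaggagccgg
Eif4g1, chr16:20672661-20672690, plus strand: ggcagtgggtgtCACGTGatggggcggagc
Eif3f, chr7:108934335-108934364, plus strand: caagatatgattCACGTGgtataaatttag
Eef2k, chr7:120842788-120842817, plus strand: cccggggacggcCACGTGagcccgggcgtg
In Eef2 the motif began 43 bases before the RefSeq start, in Eif4g1 54 and in Eef2k 31. Eif4e held it at 2 places, 228 and 64 bases before a RefSeq start. The gene span used for the RNA values begins earlier in Eif4e, at base 138526179, so both stretches lie inside that span. The printed stretches of Eif5a (minus strand, span from base 69921958) and Eif4g1 (span from base 20668313) also lie inside. The median log2 fold change on the spike-in scale was 1.09 over the 14 tested members that held it and 1.07 over 37 that did not, and with voom (described with the changes) 1.11 and 1.14, so the order of the 2 medians turned with the fit. The difference was not tested. A match is a description of the letters and not a site of binding.

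Elongation factors were the most abundant mRNAs of the machinery, and the levels of all members spanned a 2304-fold range among the 64 that were tested. Of the 67 members, 10 had a mean level over the 4 libraries of at least 100, 39 lay from 10 to under 100, 15 from 1 to under 10 and 3 under 1. Together the members took 2.61% and 2.61% of all reads at low MYC and 2.55% and 2.54% at high MYC, so their share moved little. Eef1a1, the main eEF1A gene of most tissues (chr9:78478449-78489151, minus strand, mm10), led with a level of 2174 and 2249 at low MYC and 4800 and 5101 at high MYC. It alone held 36.7% of the member reads in low-MYC replicate 1 and 37.2% in high-MYC replicate 2. Eef2, the translocation factor, followed with 366 and 359 at low MYC and 815 and 791 at high MYC. Eef1g stood at 232 and 235 at low MYC and 501 and 523 at high MYC, and Eef1b2, another subunit of the exchange factor of eEF1A, at 115 and 121 at low MYC and 262 and 274 at high MYC. Eef1d, the exchange subunit with the lowest level, had 29.9 and 29.7 at low MYC and 63.8 and 64.2 at high MYC. Eef1a2, the form of muscle and neurons, was close to absent, with 12 and 6 at low MYC and 33 and 28 at high MYC, in reads. Every tested member had both high-MYC libraries above both low-MYC libraries, as did 99.0% of all tested genes.

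**Figure D1:**
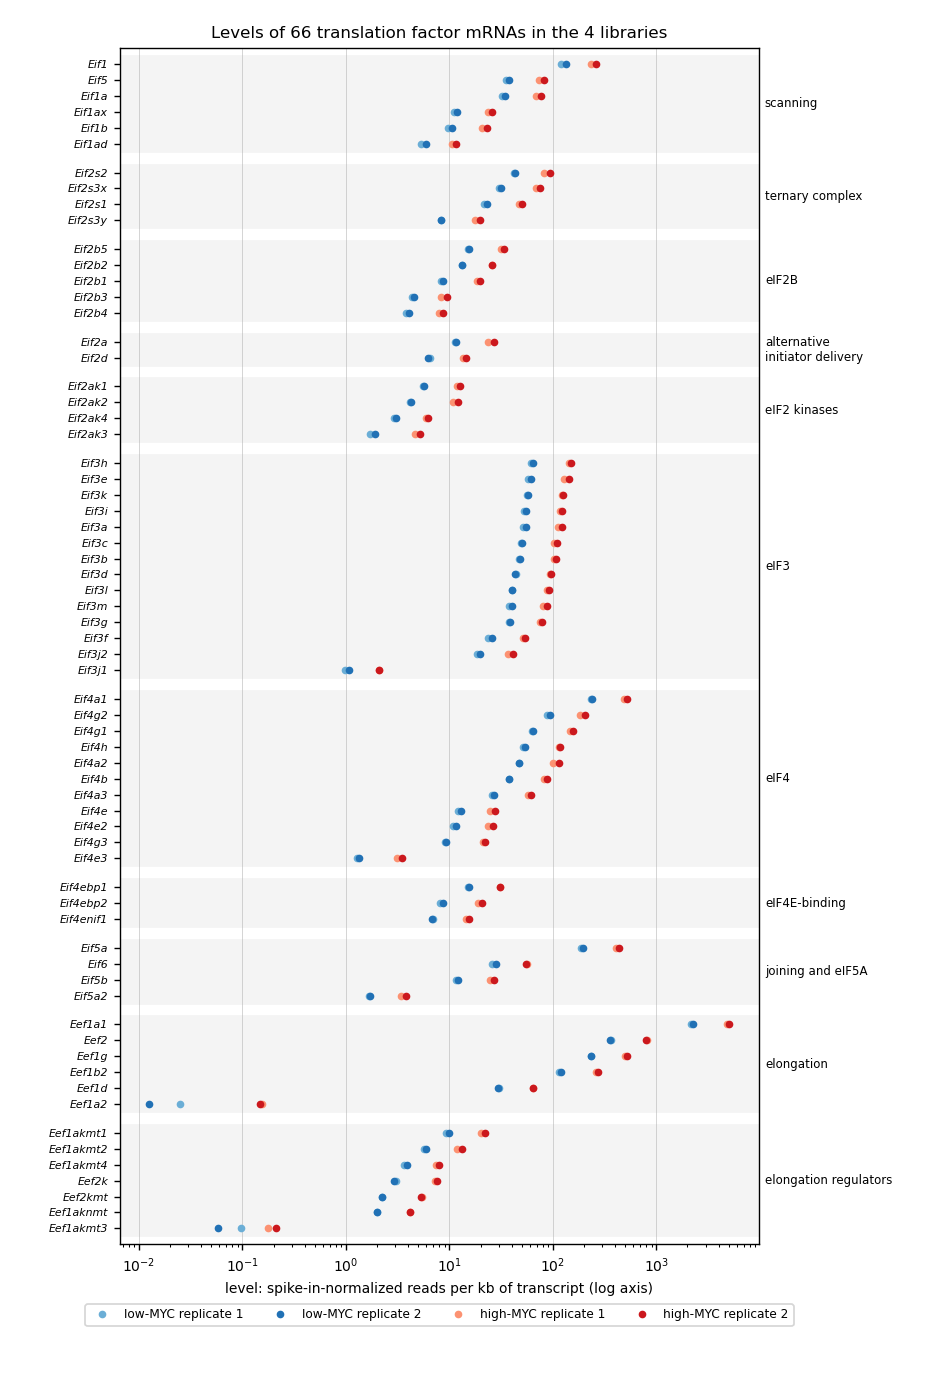
Level of each member (spike-in-normalized reads per kb of longest protein-coding transcript, log axis) in the 4 libraries, grouped by role and ordered by mean level; 66 members are drawn, and Eif4ebp3, at 8 reads or fewer, is left out. Eef1a1 lies farthest to the right, at 2174 to 5101, and in each tested member the 2 high-MYC points lie to the right of the 2 low-MYC points.

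Among the scanning factors Eif1, which keeps the ribosome from settling on a wrong codon, was highest, at 120.5 and 135 at low MYC and 236 and 260.3 at high MYC. Its paralog Eif1b had 9.72 and 10.5 at low MYC and 20.5 and 22.9 at high MYC. Eif5, the GTPase activator of eIF2, had 35.4 and 37.9 at low MYC and 73.5 and 81.4 at high MYC. Eif1 exceeded its paralog at least 11.4-fold in every library. Eif1a, the next, stood at 32.0 and 34.7 at low MYC and 69.0 and 76.0 at high MYC. Its X-linked copy Eif1ax had 11.1 and 11.9 at low MYC and 23.4 and 25.7 at high MYC. Eif1ad, an eIF1A-domain protein of small-subunit maturation, had 5.32 and 5.92 at low MYC and 10.5 and 11.6 at high MYC. The order of these 6 genes by level was the same in each library.

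Of the eIF2 subunits the beta subunit Eif2s2 had 41.8 and 43.5 at low MYC and 82.3 and 94.0 at high MYC. The gamma subunit has an X-linked and a Y-linked gene. The first, Eif2s3x, had 30.4 and 31.9 at low MYC and 68.3 and 75.4 at high MYC, and the second, Eif2s3y, had 8.39 and 8.28 at low MYC and 17.6 and 19.7 at high MYC. The alpha subunit Eif2s1, the target of the eIF2 kinases, ranged from 21.8 to 50.6 over the 4 libraries and lay between the X-linked and the Y-linked gene in each. The 5 subunits of eIF2B were led by the catalytic subunit Eif2b5 (15.2 and 15.6 at low MYC and 31.8 and 33.9 at high MYC). Eif2b2 followed with 13.2 and 13.4 at low MYC and 25.9 and 26.0 at high MYC. The other 3 ranged from 3.77 to 20.0. Initiator tRNA can also be delivered without eIF2, as the products of Eif2a and Eif2d do. Eif2a had 11.3 and 11.6 at low MYC and 23.7 and 27.0 at high MYC. Eif2d had 6.49 and 6.18 at low MYC and 13.7 and 14.3 at high MYC.

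The 12 core subunits of eIF3, which form 1 complex, lay within a 2.69-fold range, from Eif3f (38.8, mean over the 4 libraries) to Eif3h (104), with a coefficient of variation of 24.3%. On the deposited values the same subunits spanned 8.70-fold, with a coefficient of variation of 46.1%, and Eif3h was the lowest in place of the highest. Eif3h covers 78966 bases of the genome with a transcript of 1295 bases, so a value per kilobase of span is small. The corresponding ranges of the 5 eIF2B subunits were 3.94-fold and 15.8-fold. With merged exons as the length the eIF3 range was again 2.69-fold, while that of eIF2B became 4.65-fold. Levels of different genes thus depend on the length taken. Eif3a, which encodes the largest subunit, had 52.0 and 55.1 at low MYC and 112 and 124 at high MYC. Eif3h, the leading subunit by level, had 61.1 and 63.7 at low MYC and 142 and 149.6 at high MYC. The loosely bound subunit eIF3j has 2 gene copies, of which Eif3j2 had 18.3 and 20.0 at low MYC and 37.1 and 41.7 at high MYC. Eif3j1 had 0.983 and 1.08 at low MYC and 2.07 and 2.08 at high MYC, but 91.8% of the 50-base words of the Eif3j2 transcript occur in other genes, mainly Eif3j1, so the split between them is uncertain.

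**Figure D2:**
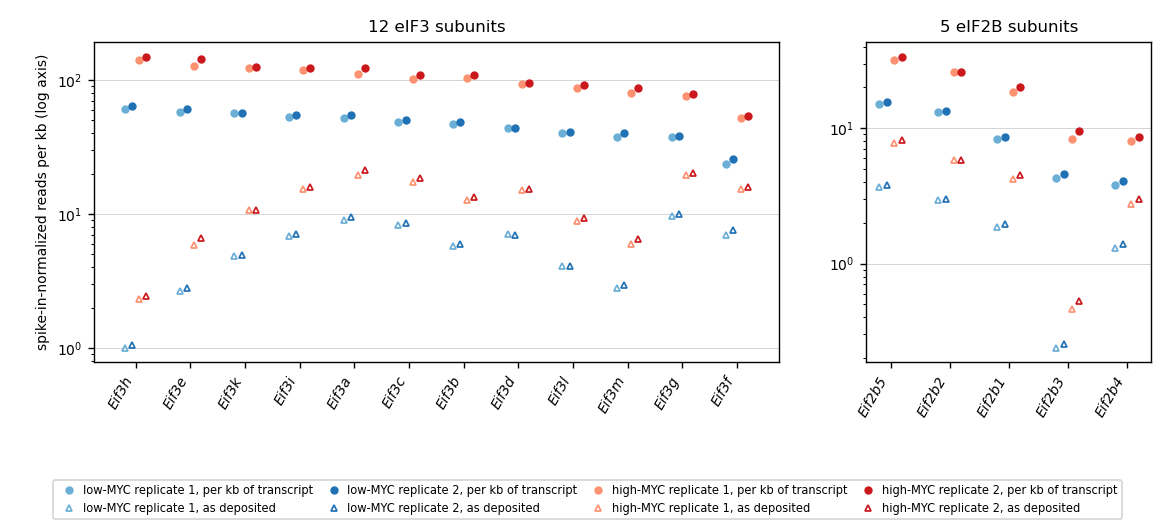
Values of 12 eIF3 subunits (left) and 5 eIF2B subunits (right) in the 4 libraries, per kb of transcript (circles) and as deposited per kb of gene span (triangles), on log axes. The circles of eIF3 lie within a 2.69-fold range of means, while the triangles span 8.70-fold and Eif3h moves from first to last.

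In the eIF4 group the helicase Eif4a1 led with 232 and 241 at low MYC and 491 and 524 at high MYC. Its paralog Eif4a2 had 47.0 and 47.0 at low MYC and 101 and 114 at high MYC. Eif4a3, a helicase of the exon junction complex and not of the cap, had 26.0 and 26.7 at low MYC and 57.3 and 61.2 at high MYC. The scaffold without an eIF4E site, Eif4g2, had 87.7 and 93.0 at low MYC and 185 and 203 at high MYC. Eif4g1, the scaffold that binds eIF4E, had 63.0 and 63.9 at low MYC and 146 and 155 at high MYC. The third scaffold, Eif4g3, stood at 9.09 and 9.19 at low MYC and 21.0 and 21.95 at high MYC. The cap-binding protein itself was far less abundant at the mRNA level than its helicase, and Eif4a1 exceeded Eif4e 18.6-fold to 19.9-fold over the 4 libraries. Eif4e had 12.01 and 12.9 at low MYC and 24.6 and 27.8 at high MYC. Its homologue Eif4e2 had 10.9 and 11.7 at low MYC and 23.8 and 26.3 at high MYC. Eif4e3, another homologue, had 1.29 and 1.35 at low MYC and 3.10 and 3.47 at high MYC. Eif4b, a cofactor of the helicase, had 37.7 and 38.1 at low MYC and 82.2 and 87.1 at high MYC, and Eif4h, a related cofactor, ranged from 51.6 to 117 over the 4 libraries.

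Of the repressors of eIF4E, Eif4ebp1 had 15.1 and 15.4 at low MYC and 31.1 and 30.9 at high MYC. Eif4ebp2, the lower of the pair in every library, had 8.09 and 8.65 at low MYC and 18.9 and 20.8 at high MYC. Eif4ebp3 was not detectable beyond a few reads (0 and 8 at low MYC and 5 and 0 at high MYC) and was not tested. Eif4enif1, which carries eIF4E into the nucleus, ranged from 6.82 to 15.6. Eif5a, whose product carries hypusine and keeps elongation and termination moving, had 188 and 194 at low MYC and 412 and 440.0 at high MYC. Its paralog Eif5a2 had 1.67 and 1.71 at low MYC and 3.399 and 3.81 at high MYC. Eif5b, which joins the subunits, ranged from 11.5 to 27.1. Eif6, which keeps free large subunits apart from small ones, had 26.1 and 28.0 at low MYC and 55.7 and 55.4 at high MYC. The lowest groups were the kinases of eIF2 and the regulators of elongation, with medians over genes of 6.21 and 5.20. Eif2ak1 led the first with 5.59 and 5.72 at low MYC and 11.9 and 12.6 at high MYC. Among the regulators are methyltransferases of eEF1A, of which Eef1akmt4 had 3.63 and 3.87 at low MYC and 7.46 and 7.90 at high MYC. Eef1aknmt had 1.998 and 2.001 at low MYC and 4.13 and 4.19 at high MYC. The other 4 regulators tested, the eEF2 kinase Eef2k among them, had means over the libraries of 3.83 to 15.4. Eef1akmt3 (61 and 36 at low MYC and 49 and 52 at high MYC, in reads), Eef1a2 and Eif4ebp3 are the 3 members that fell below the minimum mean for a test.

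Some of these mRNAs share sequence with other genes. Of the 67 members, 36 had at least 1 transcript word of 50 bases in common with another annotated gene, 14 had at least 20% in common and 5 at least 50%. Beside Eif3j2 these were Eif4a1 (65.3%), Eef1g (64.3%), Eef1a1 (59.2%, over 20 other genes) and Eif4ebp3 (65.5%). Their levels are uncertain to the extent that the quantification divided shared reads.

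On the spike-in scale every tested factor mRNA was higher in high-MYC cells, as were nearly all genes. All 64 tested members were higher (limma on log2(normalized FPK + 0.1), with p adjusted by Benjamini-Hochberg over 11870 genes and under 0.01), against 97.1% of all tested genes, and 0 were lower (0.0253% of all genes). Of the 64, 49 (76.6%) were also at least 2-fold higher, against 55.1% of all genes. The member median was 1.08 and that of all genes 1.03 on the log2 scale. The ratio of the group means, which needs no pseudocount, ranged over the tested members from 1.94 to 2.71 with a median of 2.18. The median of all tested genes was 2.26. The member median thus lay above that of all genes on the limma scale and below it by the ratio of means.

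Eif2ak2, the interferon-induced kinase PKR that is triggered by double-stranded RNA, showed the largest limma difference, at deposited values of 0.604 and 0.618 at low MYC and 1.57 and 1.73 at high MYC with a log2 fold change of 1.30 ± 0.0622 (SE). Eif4g1 followed with deposited values of 14.5 and 14.7 at low MYC and 33.5 and 35.6 at high MYC and a change of 1.24 ± 0.0473 (SE). The third was Eif4ebp2 with 1.94 and 2.07 at low MYC and 4.53 and 4.98 at high MYC and a change of 1.21 ± 0.0646 (SE). The smallest differences belonged to genes with low deposited values. Eif4e3 had 0.0782 and 0.0813 at low MYC and 0.188 and 0.210 at high MYC with a change of 0.73 ± 0.0651 (SE). Eif3j1 had 0.190 and 0.208 at low MYC and 0.400 and 0.402 at high MYC and 0.75 ± 0.0590 (SE). Eif2ak4, the amino acid sensor GCN2, had 0.180 and 0.185 at low MYC and 0.367 and 0.384 at high MYC and 0.75 ± 0.0550 (SE). The pseudocount of 0.1 shrinks such genes. With limma voom on the recovered reads, an alternative chosen after the data were seen that needs no pseudocount, the log2 fold changes of these 3 genes were 1.31, 1.013 and 1.04, all 64 members were higher against 97.5% of all genes, and 61 (95.3%) were at least 2-fold higher against 88.1%. With voom the largest changes were those of Eif2ak3 (1.44), Eif2ak2 (1.43) and Eef2k (1.32), with Eif4g1 at 1.25, and by the ratio of means, too, Eif2ak3 (2.71) stood just above Eif2ak2 (2.70). The 3 members under 2-fold with voom were Eif1, Eif1ad and Eif2b2, at 0.96, 0.97 and 0.96 on the log2 scale.

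**Figure D3:**
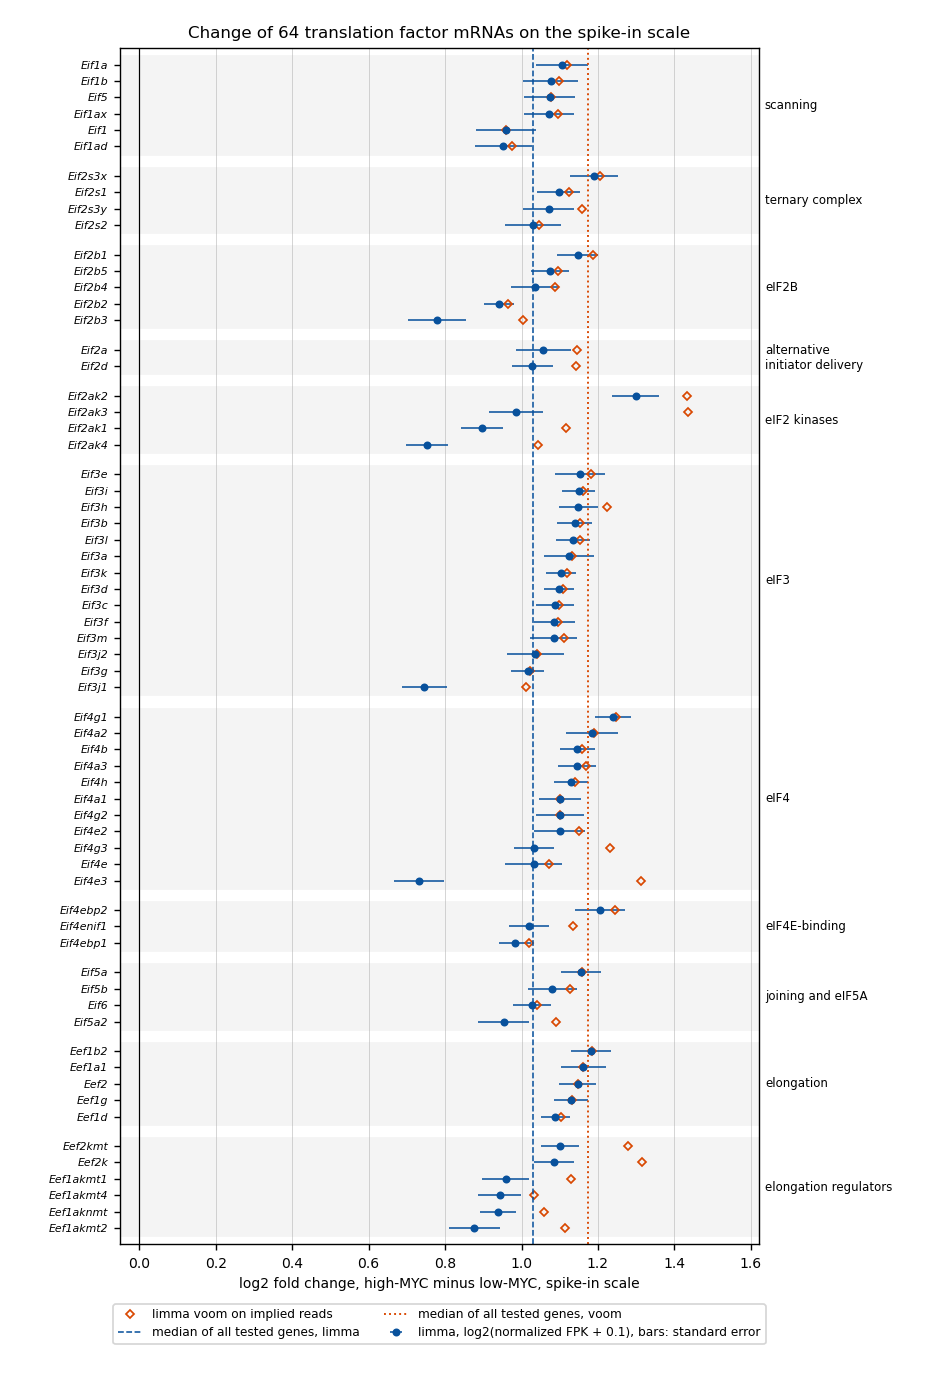
Log2 fold change of 64 members on the spike-in scale (high-MYC minus low-MYC), from limma with the standard error (filled circles) and from limma voom on recovered reads (open diamonds), by role, with the medians of all tested genes as vertical lines. All points lie right of 0, from 0.73 for Eif4e3 to 1.30 for Eif2ak2 with limma, and the low members Eif4e3, Eif2ak3 and Eif2ak4 lie farther right with voom.

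By role, the limma medians were 1.07 for 6 scanning factors, 1.08 for 4 eIF2 subunits, 1.03 for 5 eIF2B subunits and 0.94 for 4 eIF2 kinases. They were 1.101 for 14 eIF3 genes, 1.101 for 11 eIF4 genes, 1.02 for 3 eIF4E-binding genes, 1.05 for 4 genes of joining and eIF5A, 1.15 for 5 elongation factors and 0.95 for 6 of their regulators. With voom the same groups ran from 1.09 (scanning and eIF2B) to 1.27 (kinases), around an all-gene median of 1.17. Of the 14 eIF3 genes, 11 lay within a narrow band of limma values, from 1.08 to 1.15. Known mRNAs with a terminal oligopyrimidine tract, the motif by which mTOR controls their translation, had a median of 1.15 over 9 members, with a range from 1.09 to 1.18. After rescaling to the same median 3 of the 9 lay above 0 and 6 below, with a median of -0.020. Of all 11870 tested genes, 5757 then lay above 0 and 6113 below.

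Relative to the median gene most of the machinery lay slightly lower in high-MYC cells, without passing the limma test. After each library was divided by its median over the tested genes, 50 of 64 members had a log2 fold change below 0 and 14 above. Of all 11870 tested genes, 6113 lay below 0 and 5757 above. The member median was -0.05 against -0.004 for all genes. Both high-MYC libraries lay below both low-MYC libraries for 41 members (64.1%, against 32.6% of all genes) and above them for 9 (14.1%, against 30.7%). Limma called 0 members higher (1.76% of all genes) and 0 lower (0.531%) at a Benjamini-Hochberg adjusted p under 0.01. At an unadjusted p under 0.05, 3 members were higher (17.3% of all genes) and 14 lower (15.8%) in the same limma fit. Limma voom called 2 members higher (10.4% of all genes) and 5 lower (7.42%). The member median stayed below 0 when libraries were rescaled to the same total (-0.04) or upper quartile (-0.06), and the sign is positive on the spike-in scale.

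**Figure D4:**
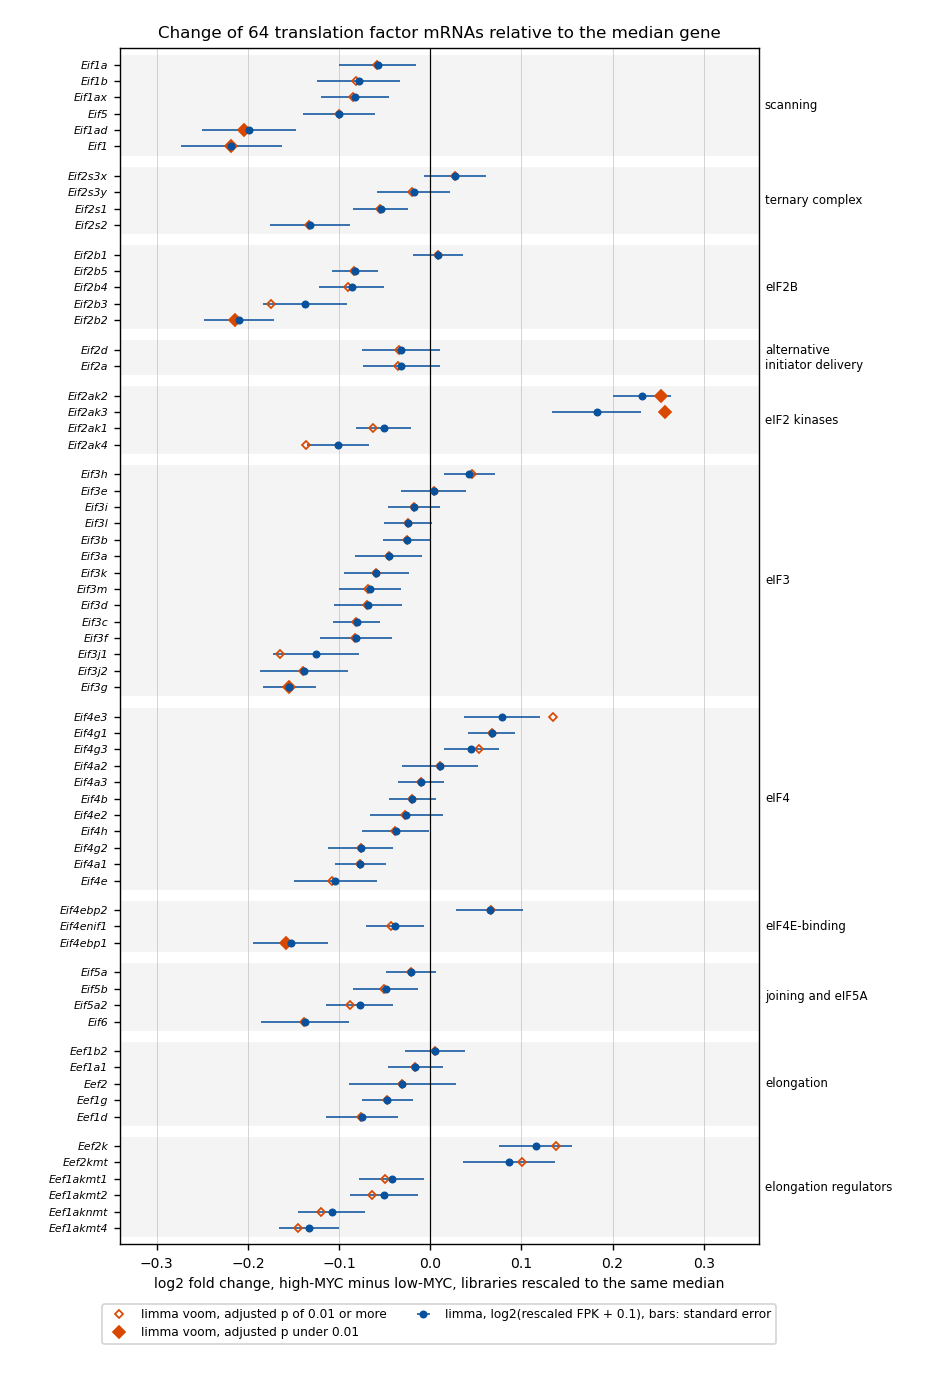
Log2 fold change of 64 members with libraries rescaled to the same median (high-MYC minus low-MYC), from limma with the standard error (filled circles) and from limma voom (diamonds, filled at an adjusted p under 0.01), by role. Most points lie left of 0; the filled diamonds are Eif2ak2 and Eif2ak3 on the right and Eif1, Eif1ad, Eif2b2, Eif3g and Eif4ebp1 on the left.

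Of the 4 eIF2 kinases, voom called 2 higher after rescaling, against 10.4% of all genes. A group this small was not tested against that share. Eif2ak2 (chr17:78852564-78882573, minus strand) had rescaled values of 0.997 and 0.998 at low MYC and 1.17 and 1.21 at high MYC and a difference of 0.23 ± 0.0319 (SE, limma, Benjamini-Hochberg adjusted p = 0.0266). With voom it was 0.25 ± 0.0396 (SE, limma voom, Benjamini-Hochberg adjusted p = 2.08e-04). Eif2ak3 (chr6:70844515-70905245, plus strand), the endoplasmic reticulum stress kinase PERK, had rescaled values of 0.210 and 0.230 at low MYC and 0.258 and 0.268 at high MYC. Its difference was 0.18 ± 0.0486 (SE, limma, Benjamini-Hochberg adjusted p = 0.0875). With voom it was 0.26 ± 0.0541 (SE, limma voom, Benjamini-Hochberg adjusted p = 0.00228). Eif2ak4 and the heme-regulated kinase Eif2ak1 had -0.14 and -0.063 with voom and passed in neither fit. The level of Eif2ak2 relative to Eif2ak4 was 1.43 and 1.43 at low MYC and 1.82 and 1.92 at high MYC, without overlap. After rescaling, both high-MYC libraries lay above both low-MYC libraries for Eif2ak2 and below them for Eif2ak4. The ratio of these genes therefore had to separate the groups and adds no support beyond their values. The macrophage markers, with Lyz2 at 0.0305 and 0.142 at low MYC and 17.99 and 18.9 at high MYC, move with the same groups, and their part in the values of Eif2ak2 and Eif2ak3 was not tested.

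On the other side, Eif1 (chr11:100319885-100322096, plus strand) had rescaled values of 119 and 130.0 at low MYC and 105 and 109 at high MYC and a difference of -0.22 ± 0.0556 (SE, limma, Benjamini-Hochberg adjusted p = 0.0807). With voom it was -0.22 ± 0.0425 (SE, limma voom, Benjamini-Hochberg adjusted p = 0.0013). Eif1ad (chr19:5366741-5371526, plus strand) had 4.69 and 5.10 at low MYC and 4.17 and 4.33 at high MYC. Its difference was -0.20 ± 0.0512 (SE, limma, Benjamini-Hochberg adjusted p = 0.0819). The voom value was -0.20 ± 0.0488 (SE, limma voom, Benjamini-Hochberg adjusted p = 0.00564). For Eif2b2 (chr12:85219481-85226628, plus strand) the rescaled values were 4.90 and 4.84 at low MYC and 4.32 and 4.08 at high MYC. Its limma difference was -0.21 ± 0.0385 (SE, limma, Benjamini-Hochberg adjusted p = 0.0453). The voom value was -0.21 ± 0.0414 (SE, limma voom, Benjamini-Hochberg adjusted p = 0.00127). Of the 14 eIF3 genes only Eif3g (chr9:20894349-20898623, minus strand), an RNA-binding subunit, passed with voom. Of all genes voom called 7.42% lower and 10.4% higher. Its rescaled values were 15.9 and 16.0 at low MYC and 14.5 and 14.1 at high MYC, with a limma difference of -0.15 ± 0.0289 (SE, limma, Benjamini-Hochberg adjusted p = 0.0464). The voom difference was -0.16 ± 0.0358 (SE, limma voom, Benjamini-Hochberg adjusted p = 0.00442). In each of these 4 genes both high-MYC libraries lay below both low-MYC libraries, and the limma difference was -0.22 to -0.15 on the log2 scale. Replicates of a group differed by more than counting noise, with a mean chi-square per degree of freedom over members of 13.9 for the low-MYC and 25.1 for the high-MYC pair, and each library was kept as a replicate.

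Of the eIF4E repressors, voom called 1 lower after rescaling (7.42% of all genes) and none higher (10.4% of all genes). So short a list was not tested against those shares. Eif4ebp1 (chr8:27260329-27276674, plus strand) had rescaled values of 3.05 and 3.05 at low MYC and 2.82 and 2.64 at high MYC and a difference of -0.15 ± 0.0411 (SE, limma, Benjamini-Hochberg adjusted p = 0.0885). With voom it was -0.16 ± 0.0401 (SE, limma voom, Benjamini-Hochberg adjusted p = 0.00825). Eif4ebp2 (chr10:61428491-61452661, minus strand) had 3.197 and 3.34 at low MYC and 3.37 and 3.48 at high MYC. Its limma difference was 0.065 ± 0.0369 (SE, limma, Benjamini-Hochberg adjusted p = 0.298), and voom gave 0.067, which did not pass. The level of Eif4ebp1 relative to Eif4ebp2 was 1.87 and 1.79 at low MYC and 1.64 and 1.49 at high MYC, lower in both high-MYC libraries. That of Eif4ebp2 relative to Eif4e was 0.674 and 0.669 at low MYC and 0.768 and 0.748 at high MYC, also without overlap. After rescaling, both high-MYC libraries lay above both low-MYC libraries for Eif4ebp2 and below them for Eif4ebp1 and Eif4e. These ratios therefore had to separate the groups and add no support beyond the values of the genes. The sum of both repressors relative to Eif4e overlapped, at 1.93 and 1.86 at low MYC and 2.03 and 1.86 at high MYC.

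Ratios within a library do not depend on its scaling, and 20 were computed. In 13 the low-MYC and high-MYC values did not overlap, but with 2 libraries against 2 an exact permutation test cannot go below p = 0.333 (two-sided). Lack of overlap is common in these libraries. Of all tested genes after rescaling, 30.7% had both high-MYC libraries above both low-MYC libraries and 32.6% had both below. The share among ratios of other gene pairs was not computed, so the count is not a result about these factors. Eif4a1 relative to the scaffold Eif4g1 was 3.68 and 3.77 at low MYC and 3.36 and 3.38 at high MYC. Eif4g2 relative to Eif4g1 was 1.39 and 1.45 at low MYC and 1.27 and 1.31 at high MYC. Eif1 relative to Eif1b was 12.4 and 12.8 at low MYC and 11.5 and 11.4 at high MYC. In all 3 the high-MYC ratios lay below the low-MYC ratios. After rescaling, both high-MYC libraries lay above both low-MYC libraries for Eif4g1 and below them for Eif4a1 and Eif4g2. The ratios to Eif4g1 therefore had to separate the groups. Eef1a1 relative to Eef2 overlapped between groups, at 5.94 and 6.27 at low MYC and 5.89 and 6.45 at high MYC. Eif2s3x relative to Eif2s3y did so as well, at 3.62 and 3.85 at low MYC and 3.89 and 3.83 at high MYC. Eif5a relative to Eif5a2 was 112 and 114 at low MYC and 121 and 115 at high MYC.

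Genes that work with these factors but lie outside the family were read on the same scales. All 42 tested partners were higher on the spike-in scale (limma, Benjamini-Hochberg adjusted p under 0.01), against 97.1% of all genes. At least 2-fold were 28, against 55.1% of all genes, with a median log2 fold change of 1.07. After rescaling, limma called 0 higher (1.76% of all genes) and 0 lower (0.531%), and voom called 2 higher (10.4% of all genes) and 5 lower (7.42%). At an unadjusted p under 0.05 in the same limma fit, 3 of the 42 were higher (17.3% of all genes) and 9 lower (15.8%). The partner that stood lowest was Ppp1r15a, which encodes GADD34, the stress-induced subunit that directs a phosphatase to eIF2. Its deposited values were 8.38 and 7.92 at low MYC and 12.4 and 12.9 at high MYC. On the rescaled scale its difference was -0.53 ± 0.0480 (SE, limma, Benjamini-Hochberg adjusted p = 0.0112). With voom it was -0.54 ± 0.0439 (SE, limma voom, Benjamini-Hochberg adjusted p = 2.71e-07). Its constitutive counterpart Ppp1r15b had -0.21 ± 0.0387 (SE, limma voom, Benjamini-Hochberg adjusted p = 8.45e-04). Both are regulators of the factors, a list of 13 genes in which Rps6kb1 (0.21) and Mtor (0.15), kinases that promote cap-dependent translation, were the 2 that voom called higher.

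The remaining lists hold few calls. Over all genes after rescaling, limma called 1.76% higher and 0.531% lower, and voom 10.4% and 7.42%. At an unadjusted p under 0.05, limma had 2055 higher and 1879 lower of 11870 genes, and voom 2367 and 2269. Lists this short cannot be told apart from those shares. Release and recycling factors had a rescaled limma median of -0.065 over 6 genes, and voom called Hbs1l, a ribosome rescue factor, lower (-0.21). Poly(A)-binding proteins and their partners had -0.0085 over 5 genes, with Pabpc4 called lower by voom (-0.16) and Pabpc1 at 0.10, which did not pass. Scanning helicases and reinitiation factors had -0.0011 over 4 genes and 0 calls in either fit (0 and 1 at an unadjusted p under 0.05 with limma and limma voom). Enzymes of hypusine and diphthamide, the modifications of eIF5A and eEF2, had 0.013 over 8 genes, and voom called Dph5 lower (-0.26). Mitochondrial factors had -0.039 over 6 genes and 0 calls in either fit (1 at an unadjusted p under 0.05 in each of limma and limma voom).

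Chromatin data touch part of the family. The FUBP1 peak list covers chromosome 15, which carries 6 members: Eef1d, Eif3d, Eif3e, Eif3h, Eif3l and Eif4b. Called peaks overlapped 2 of them. On Eif3e (chr15:43250058-43282719, minus strand) a peak of 4200 bases, chr15:43264401-43268600, lay inside the gene with 251 exon bases, and a second of 5400 bases, chr15:43246401-43251800, covered its 3′ end and ran past it. On Eif4b (chr15:102073773-102097173, plus strand) a peak of 4400 bases, chr15:102083201-102087600, lay inside the gene from 9428 bases after the start and held 516 exon bases. No peak reached the start of any of the 6 genes. Of 408 protein-coding genes of chromosome 15 with a mean of at least 0.1, 55 (13.5%) overlapped a peak, and of the 28 with as many reads as these members 17 (60.7%) did. Eif3e had a spike-in log2 fold change of 1.15 ± 0.0648 (SE) and Eif4b of 1.15 ± 0.0465 (SE). Of the 4 members without a peak, Eif3h had 1.15 ± 0.0513 (SE), Eif3l 1.13 ± 0.0451 (SE), Eif3d 1.099 ± 0.0397 (SE) and Eef1d 1.09 ± 0.0388 (SE). By reads, the measure of the matched share above, the 2 members with a peak stood highest of the 6 in each library. In low-MYC replicate 1 Eif4b had 33370 and Eif3e 20079 reads, and the other 4 had from 17922 (Eif3l) to 19517 (Eef1d). By level, per kilobase of transcript, the order was mixed. A link of peaks with abundance was not tested. Eif3e stood at 58.0 and 61.0 at low MYC and 128 and 142 at high MYC. Eif3d had 44.1 and 43.6 at low MYC and 93.7 and 95.5 at high MYC. Eif3l had 40.2 and 40.7 at low MYC and 87.8 and 92.2 at high MYC. Eif3h, with the highest level of the 6, has no called peak. With 1 sample the peaks have no replicate check. The paper reports some cross-reaction of the ChIP antibody with FUBP2, so the peaks may not be those of FUBP1 alone.

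**Figure D5:**
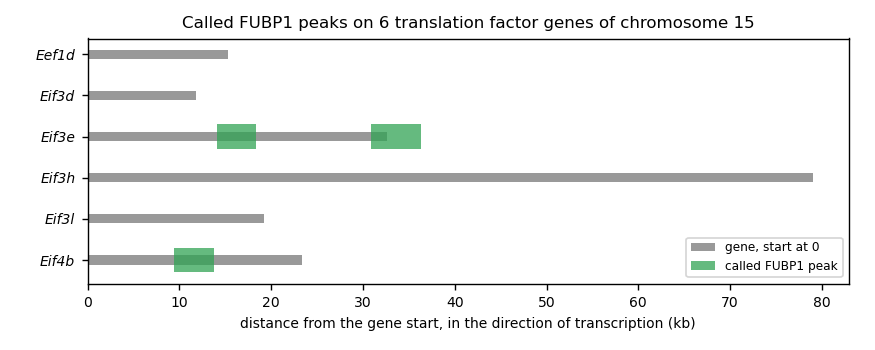
Called FUBP1 peaks (green) on the 6 members of chromosome 15 (grey bars, from the gene start in the direction of transcription, in kb). Only Eif3e, with 2 peaks, and Eif4b, with 1, carry peaks, and none lies at a gene start.

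The TACh-seq table lists positions of single reads. Such reads lay within 500 bases of the start of 57 of 64 tested members (89.1%), against 8645 of 10261 protein-coding genes tested (84.3%). Where there were any, the median was 138 reads at a member and 122 at all genes. The 7 members without listed reads there were Eef1a1, Eif1b, Eif2d, Eif2s3y, Eif3g, Eif3j2 and Eif4g1. A gene can have further starts, so this does not show that their promoters are closed. Eif4g1 begins at base 20668313 of chromosome 16, but its E-box stretch above, from base 20672661, lies 54 bases before a RefSeq start. Whether these promoters are accessible was not tested. No column of that table names a library, and its name refers to WT alone, so it may hold WT reads only, and WT and KOKD MEFs were not compared.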

How the data were processed

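RNA-seq (4 libraries, TruSeq Stranded mRNA), FUBP1 ChIP-seq (1 sample) and accessible-chromatin sequencing were used. For RNA the authors aligned reads to the mm10 transcriptome with TopHat in Partek Flow, divided reads by length in kilobases (FPK) and then by a score from ERCC spike-in RNA added in proportion to cell number. The deposited signal is this normalized FPK, and no read counts were used as deposited. The length in it matched the gene span and not the transcript, with introns in the divisor, so levels of long genes are understated, while fold changes of a gene keep its length. Reads implied by the values (value times span over the step of the library) were whole within 0.02 of a read for 66.7% to 67.8% of genes under 60 reads and are not counts of the authors. The FUBP1 peaks, which the authors called with SICER against input after Bowtie2 alignment to mm10, were used by position. The TACh-seq table deposited by the authors lists read positions with a mapping quality score, which was not used as a filter, and names no library.

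Changes were tested with limma 3.58.1 (lmFit and eBayes with trend, R 4.3.3) on log2(FPK + 0.1) of 11870 genes with a mean of at least 0.1, with Benjamini-Hochberg adjustment over all of them. The second comparison divided each library by its median over these genes. Fold changes are on the log2(FPK + 0.1) scale, which understates low genes. Limma voom on recovered reads was added after the data were seen, since it shows changes without a pseudocount. Levels, ratios, sequence matches (50-base transcript words, RefSeq promoters) and overlaps were computed with Python 3.11.15, pandas 2.3.3 and numpy 2.4.6. The fits were also run on simulated data in which only a small part of the genes changed. Nearly all genes were higher in the real data on the spike-in scale, so that run is no check of the calls.

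The 2 libraries of a group are technical replicates, so p-values measure the spread between these libraries. Genes given with values in every library are the 2 members highest in each role by deposited mean, those called after rescaling by any fit, the 3 largest and 3 smallest changes, paralogs and members on chromosome 15. Further genes (Eef1g, Eef1b2, Eif4g1 and others above) and all partners named were chosen after their values were seen. The members and lists were chosen with earlier results of these data known. Alternatives were the pseudocount, the minimum mean, the scaling, limma without trend, thresholds, a replicate block, leaving out each library, the length divisor and peak overlap.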

Additional observations from a re-analysis of the deposited data

How the results depend on the processing

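All tested members held at least 748 reads in each library, and the tests rest on 2 technical replicates per group and on the spike-in score. All 64 members were higher on the spike-in scale with pseudocounts of 0.01 and 1, without trend, at an adjusted p of 0.05, without each library and with voom, as were the 49 tested at a minimum mean of 1 and 65 of the 67 tested with no filter. With libraries rescaled, 0 members were higher and 0 at least 2-fold, and the median log2 fold change became -0.050 (same median) or -0.037 (same total). A pseudocount of 1 gave 20 members at least 2-fold and a median of 0.92, and over all genes the 2-fold count was 1448 with it, 10076 with a pseudocount of 0.01 and 10455 with voom against 6540. Leaving out 1 library at a time gave 39 to 54 members at least 2-fold and a median of 1.03 to 1.13. For the rescaled comparison an adjusted p of 0.05 called 1 higher and 2 lower, a minimum mean of 1 called 1 lower (Eif2b2, median -0.067), no filter gave a median of -0.078, and voom called 2 higher and 5 lower. Leaving out 1 library gave 0 calls among members and a median of -0.06 to -0.04, with at most 11 of 11870 genes called against 209 higher and 63 lower. The eIF3 range was 8.70-fold on the deposited values. Differences between replicates 1 and 2 at low MYC and at high MYC had a correlation of 0.081 over 11870 genes, so replicate numbers showed little pairing. With the replicate block 64 members were higher and 49 at least 2-fold, and after rescaling 0 genes passed in either direction. The cause of these shifts was not tested.

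Of all 11870 tested genes, 6113 had a log2 fold change below 0 when rescaled to the same median. Rescaled to the same median and to the same total, 25 of the 32 members given with values by the naming rule had log2 fold changes below 0 and 7 (Eif2ak2, Eif2s3x, Eif3e, Eif3h, Eif4e3, Eif4ebp2 and Eif4g1) above 0, the latter from 0.0036 (Eif3e) to 0.23 (Eif2ak2) at the same median. The 25 had, in that order: Eef1a1 -0.016 and -0.0011, Eef1akmt4 -0.13 and -0.12, Eef1aknmt -0.11 and -0.095, Eef1d -0.075 and -0.060, Eef2 -0.031 and -0.015, Eif1 -0.22 and -0.20, Eif2a -0.032 and -0.018, Eif2ak1 -0.051 and -0.039, Eif2ak4 -0.10 and -0.090, Eif2b2 -0.21 and -0.19, Eif2b5 -0.083 and -0.068, Eif2d -0.032 and -0.018, Eif2s2 -0.13 and -0.12, Eif3a -0.045 and -0.030, Eif3d -0.068 and -0.053, Eif3j1 -0.12 and -0.11, Eif3j2 -0.14 and -0.12, Eif3l -0.025 and -0.010, Eif4a1 -0.077 and -0.062, Eif4b -0.020 and -0.0046, Eif4ebp1 -0.15 and -0.14, Eif4g2 -0.076 and -0.061, Eif5 -0.10 and -0.085, Eif5a -0.021 and -0.0056, Eif6 -0.14 and -0.12.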
